A study of Mus musculus with 6 samples.

Results

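Glycolysis and the response to low oxygen were followed through 35 genes in immune cells sorted from mouse tumours. The genes were taken by symbol from the feature table of the deposited matrices, which lists 32285 genes. They are 22 glycolytic enzymes and transporters and 13 hypoxia response genes. The rule takes genes by symbol and uses no measured value, but the members were chosen with earlier results of these data known. All 35 were found.

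Every animal was a female C57BL/6J mouse of 10 to 12 weeks. Tumours were grown from a breast cancer brain metastasis line, not named in the labels, that was injected into the brain (BrM, 3 libraries) or into the mammary fat pad (MFP, 3 libraries). Fresh tumours were digested with a dissociation kit, viable nucleated CD45+ cells were sorted, and transcripts were counted by unique molecular identifiers (UMIs) with 10x Genomics 3′ v3 chemistry. Both groups are tumours, and no tumour-free tissue was analysed here. Nothing in the labels ties a library to an animal of its own. A p-value here therefore reflects variation among these 6 libraries alone, part of which may be technical.

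Glycolysis splits glucose into pyruvate. Glucose enters through the transporters Slc2a1 (GLUT1) and Slc2a3 (GLUT3), and lactate, made from pyruvate by Ldha, crosses the membrane through Slc16a1 (MCT1) and Slc16a3 (MCT4). When oxygen is short, the hydroxylases Egln1 and Egln3 lose activity, HIF-1α (the product of Hif1a) escapes degradation, and HIF raises the transcription of many glycolytic genes together with genes such as Pdk1, Bnip3, P4ha1 and Ankrd37. HIF-1α is controlled largely as a protein, so the level of the Hif1a transcript is not a measure of HIF activity. Activated myeloid cells and T cells are known for a high glycolytic rate.

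HIF binds the core letters ACGTG or GCGTG, and 8 windows just upstream of members are shown because the results below turn on these genes. RefSeq promoter entries (GRCm38.p6) were matched by symbol for 21 of the 22 glycolytic genes and 11 of the 13 hypoxia response genes. Slc2a3, Bnip3l and Ero1l had no entry. Each window is the 250 bases before a RefSeq start. On both strands together, ACGTG lay in 14 of 30 glycolytic windows (46.7%), in 7 of 12 hypoxia response windows (58.3%) and in 16.6% of all 32851 windows. ACGTG or GCGTG lay in 83.3% of the windows of each list and in 38.6% of all windows. The windows are written 5′ to 3′ on the strand of the gene. Capitals mark both motifs wherever they lie on either strand, and overlapping matches run together. In order they are Ldha at chr7:46845554-46845803 (plus strand), Pgk1 at chrX:106186850-106187099 (plus), Slc2a1 at chr4:119108495-119108744 (plus), Slc16a3 at chr11:120948817-120949066 (plus), Bnip3 at chr7:138909507-138909756 (minus), Ankrd37 at chr8:45999851-46000100 (minus), Egln3 at chr12:54203875-54204124 (minus) and Tpi1 at chr6:124814159-124814408 (minus).
Ldha: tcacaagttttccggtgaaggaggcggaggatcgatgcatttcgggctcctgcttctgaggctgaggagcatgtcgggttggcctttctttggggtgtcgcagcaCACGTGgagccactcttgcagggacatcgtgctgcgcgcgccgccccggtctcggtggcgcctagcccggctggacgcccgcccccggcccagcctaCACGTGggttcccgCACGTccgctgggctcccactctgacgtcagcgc
Pgk1: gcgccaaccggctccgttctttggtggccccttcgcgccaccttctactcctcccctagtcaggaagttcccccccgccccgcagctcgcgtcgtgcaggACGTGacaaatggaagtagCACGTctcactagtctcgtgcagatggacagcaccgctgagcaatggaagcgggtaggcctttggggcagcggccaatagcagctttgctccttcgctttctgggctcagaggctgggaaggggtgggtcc
Slc2a1: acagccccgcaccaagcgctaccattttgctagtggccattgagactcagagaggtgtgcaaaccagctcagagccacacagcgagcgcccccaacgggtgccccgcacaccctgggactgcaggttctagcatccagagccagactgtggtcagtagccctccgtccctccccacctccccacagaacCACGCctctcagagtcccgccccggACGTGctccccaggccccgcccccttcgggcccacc
Slc16a3: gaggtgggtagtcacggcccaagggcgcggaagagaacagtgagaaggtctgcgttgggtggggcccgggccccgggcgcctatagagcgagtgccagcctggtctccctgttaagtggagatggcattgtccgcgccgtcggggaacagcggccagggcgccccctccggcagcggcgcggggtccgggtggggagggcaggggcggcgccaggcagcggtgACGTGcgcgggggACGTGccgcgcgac
Bnip3: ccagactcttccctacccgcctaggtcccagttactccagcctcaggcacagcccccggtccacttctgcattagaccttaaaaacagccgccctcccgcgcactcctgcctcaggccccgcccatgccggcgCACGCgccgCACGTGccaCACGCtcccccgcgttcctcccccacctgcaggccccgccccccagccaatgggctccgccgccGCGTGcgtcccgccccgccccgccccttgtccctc
Ankrd37: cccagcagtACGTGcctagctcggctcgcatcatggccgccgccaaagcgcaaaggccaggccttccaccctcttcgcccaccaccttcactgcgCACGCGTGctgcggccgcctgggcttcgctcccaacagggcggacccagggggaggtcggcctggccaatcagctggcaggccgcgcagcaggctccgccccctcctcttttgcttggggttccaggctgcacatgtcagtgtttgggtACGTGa
Egln3: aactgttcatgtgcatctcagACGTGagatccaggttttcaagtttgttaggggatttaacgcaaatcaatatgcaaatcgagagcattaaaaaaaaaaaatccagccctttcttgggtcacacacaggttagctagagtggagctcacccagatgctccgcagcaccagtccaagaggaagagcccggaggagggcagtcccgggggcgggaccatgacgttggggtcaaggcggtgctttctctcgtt
Tpi1: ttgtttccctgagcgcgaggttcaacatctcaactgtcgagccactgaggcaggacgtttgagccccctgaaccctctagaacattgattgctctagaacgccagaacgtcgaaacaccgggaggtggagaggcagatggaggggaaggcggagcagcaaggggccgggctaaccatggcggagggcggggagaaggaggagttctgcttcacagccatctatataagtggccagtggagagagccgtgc
RefSeq has another Ldha start, whose window (chr7:46846832-46847081) held 0 ACGTG and 1 GCGTG, and the Ldha window with more matches is the one shown. That window held 5 ACGTG matches, the Pgk1 and Slc16a3 windows 2 each and the Egln3 window 1. Slc2a1 held 1 ACGTG and 1 GCGTG, Ankrd37 held 2 and 2, and Bnip3 held 2 and 3. Tpi1 held neither. A match is a description of letters, not a site or a cause, and the absence of one says only that these letters are not in this window.

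The 6 libraries held 49518 barcodes and 50692794 to 70944735 UMIs each. After filtering, 46891 cells remained, and 29074 of them (62.0%) passed 1 of 14 gates built from lineage marker genes, none of which is a member. A class is named for its gate, so "neutrophil" stands for neutrophil-like cells. The gate cutoffs were set after marker levels had been seen, and 35.6 to 77.9% of a class also passed a gate that was stricter by 1 UMI. Markers kept out of the gates were highest in the matching class for the B, NK, Treg, neutrophil, mature dendritic (mature DC), plasmacytoid DC and microglia gates. Trem2, kept out of the macrophage gate, was higher in microglia, at 1489 against 260.2 counts per 1000000 UMIs. For type 1 conventional DC (cDC1), Wdfy4 and Naaa were highest there, but Irf8 was higher in plasmacytoid DC (1400 against 1151). For type 2 (cDC2), Clec10a and Mgl2 were highest there. Ccl17 was higher in mature DC (153 against 47.5) and H2-DMb2 in B cells (360 against 152). All monocyte markers were in the gate, and Ly6c2 and Plac8 were higher in plasmacytoid DC. BrM 1, MFP 1 and MFP 2 were rich in lymphoid cells, with 96.4, 97.3 and 98.8% of classified cells in lymphoid gates, whereas BrM 2, BrM 3 and MFP 3 held 33.4, 38.0 and 23.3%. These sets are called the lymphoid-rich and the mixed libraries. Pairs of libraries shared 10 to 39 cell barcodes.

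Levels are counts per 1000000 UMIs (CPM), summed over the cells of a class in 1 library with at least 20 such cells. A level is compared for one gene between classes, and not between genes, since UMIs are counted at 3′ ends. Gapdh, Eno1, Pgk1, Ldha, Aldoa and Mif have near-identical processed copies in the genome, and their counts are uncertain for that reason. In bulk sums of this kind, fewer expressing cells and fewer transcripts per cell cannot be told apart. Each class was tested against the mean of the other 13 classes by edgeR's quasi-likelihood test with library as a term, and p-values were Benjamini-Hochberg adjusted over 11490 genes. A gene with an adjusted p under 0.05 was called. Cell classes differ in many genes, so the share of all genes called in each direction is given beside each count of members.

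Averaged over libraries, neutrophils held the highest levels of both lists. In neutrophils 31 of the 35 members were higher than in the other classes and 1 was lower, while 26.6% of all genes were higher and 25.5% lower. The median log2 difference was 1.80 for the members and −0.26 for all genes tested. Neutrophils were the highest class for 10 of the 22 glycolytic genes and for 5 of the 13 hypoxia response genes. For 5 members, Slc2a1, Slc2a3, Pfkfb4, Slc16a3 and Pygl, the libraries of the highest class did not overlap those of the next. These 5 are all glycolytic. For the other 30, among them all 13 hypoxia response genes, the libraries overlapped. The highest class and the overlap were worked out for the members only. These counts therefore have no share of all genes beside them, and whether they are unusual was not tested. Neutrophils reached 20 cells in 3 libraries, with 127 cells in BrM 2, 124 in BrM 3 and 563 in MFP 3.

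Both glucose transporters were highest in neutrophils. Slc2a1 (chr4:119108711-119137983, plus strand) stood at 300.1, 288 and 537 CPM in neutrophils of BrM 2, BrM 3 and MFP 3, and at 71.5 to 193 CPM over the 6 libraries of monocytes, the next class. The neutrophil libraries all lay above the monocyte libraries, and neutrophils were higher than the mean of the other classes (log2 3.72, SE 0.16, adjusted p = 2.8e-29, edgeR's quasi-likelihood test). Slc2a3 stood at 76.1, 65.1 and 139 CPM in the same neutrophil libraries. Its next class was the plasmacytoid DC at 30.2 ± 5.49 CPM (SD, n = 4), and monocytes (2.81 ± 2.99 CPM, n = 6) and macrophages (1.31 ± 1.50 CPM, n = 6) were close to 0. Macrophages and microglia did carry Slc2a1, at 83.0 ± 25.4 CPM (SD, n = 6) and 83.5 ± 1.198 CPM (SD, n = 2), which did not differ beyond their spread.

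The lactate transporters were highest in different classes. Slc16a3 (chr11:120948480-120960868, plus strand) stood at 367, 223 and 489.7 CPM in the neutrophil libraries, at 142 ± 20.9 CPM (SD, n = 6) in monocytes and at 99.7 ± 40.3 CPM (SD, n = 6) in regulatory T cells (Tregs). NK cells held 5.39 ± 1.96 CPM (SD, n = 6) and B cells 1.46 ± 2.34 CPM (SD, n = 6). Slc16a1 was highest in CD8 T cells at 35.9 ± 3.94 CPM (SD, n = 6) and in CD4 conventional T cells at 30.5 ± 3.29 CPM (SD, n = 6), whose libraries overlapped. Neutrophils gave 0, 0 and 4 UMIs of Slc16a1 in their 3 libraries, and it was the member called lower there.

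**Figure D1:**
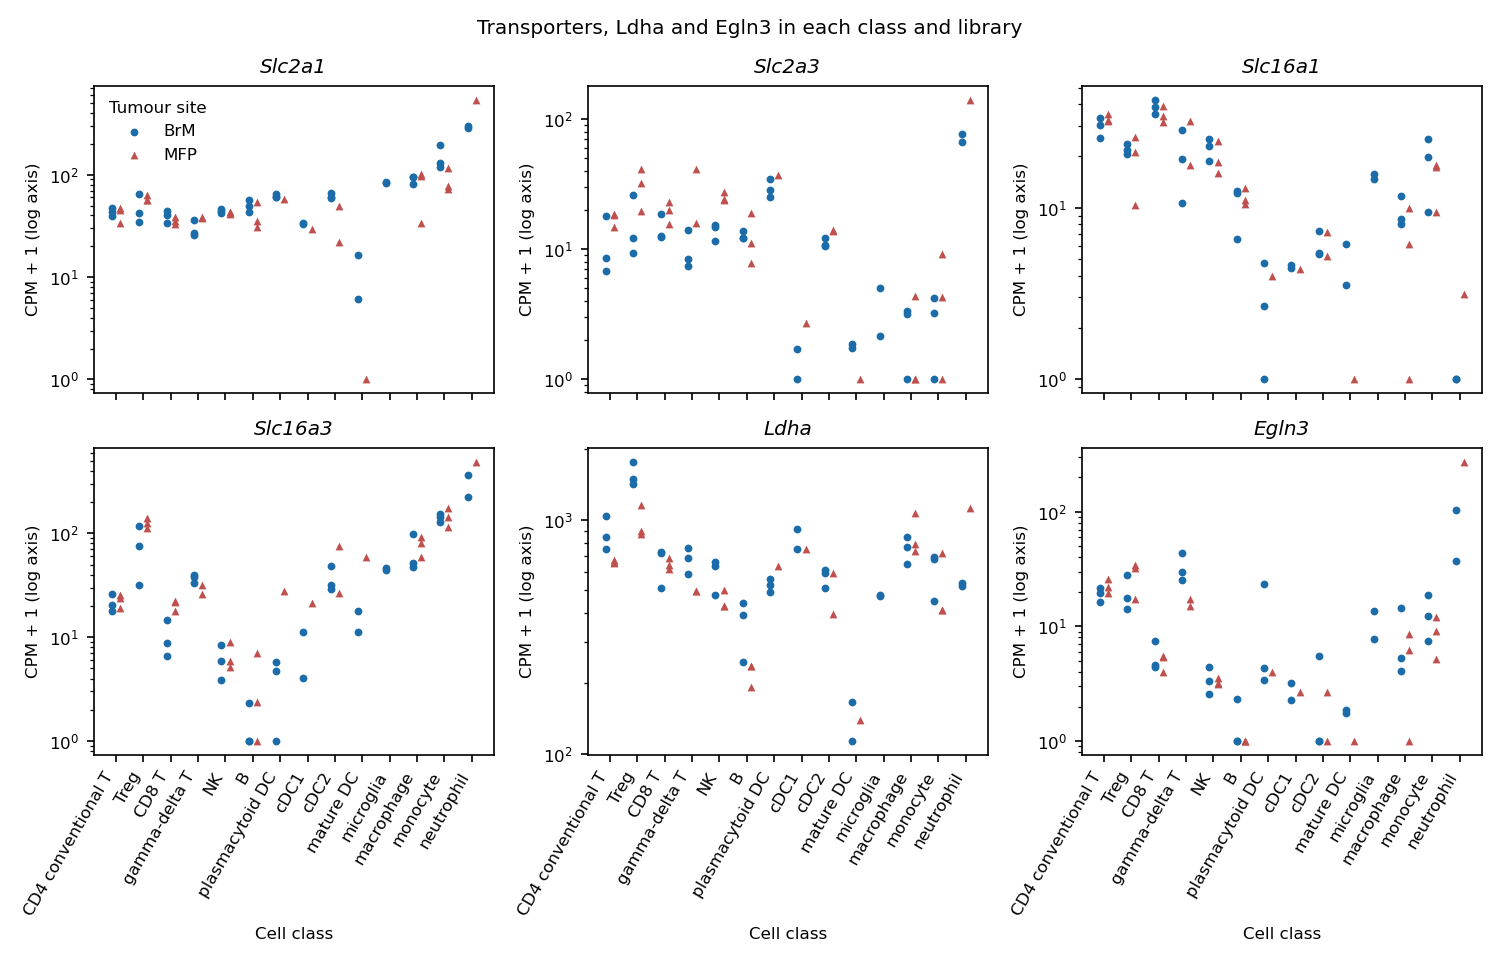
Level of Slc2a1, Slc2a3, Slc16a1, Slc16a3, Ldha and Egln3 in each cell class, as CPM + 1 on a log axis, with 1 point per library (blue circles BrM, red triangles MFP). The neutrophil points of Slc2a1, Slc2a3 and Slc16a3 lie above those of every other class, and those of Slc16a1 lie at the bottom.

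The hexokinases, which trap glucose as its phosphate, differed in order. Hk1 was highest in neutrophils at 54.1 ± 12.4 CPM (SD, n = 3) and next in CD4 conventional T cells at 49.1 ± 4.82 CPM (SD, n = 6), and lowest in microglia at 4.39 ± 1.02 CPM (SD, n = 2). Hk2 stood at 112, 199.98 and 256 CPM in neutrophils of BrM 2, BrM 3 and MFP 3, at 123 and 130.3 CPM in microglia of BrM 2 and BrM 3, and at 8.04 ± 4.51 CPM (SD, n = 6) in B cells. Hk3 was found mainly in myeloid classes. It stood at 66.5 ± 10.3 CPM (SD, n = 3) in neutrophils, 55.2 ± 10.8 CPM (SD, n = 6) in monocytes, 41.2 ± 7.22 CPM (SD, n = 2) in microglia and 40.8 ± 18.5 CPM (SD, n = 6) in macrophages, against 0.599 ± 0.637 CPM (SD, n = 6) in CD8 T cells and 0.105 ± 0.256 CPM (SD, n = 6) in Tregs. Between neutrophils and the next class the libraries overlapped for Hk1, Hk2 and Hk3.

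Phosphofructokinase commits sugar to glycolysis, and Pfkfb3 and Pfkfb4 make its activator. Pfkp, the platelet isoform, stood at 292, 308 and 484 CPM in type 1 conventional DC (cDC1) of BrM 2, BrM 3 and MFP 3. It stood at 293 ± 46.4 CPM (SD, n = 5) in type 2 (cDC2), 89.6 ± 24.3 CPM (SD, n = 6) in macrophages and 9.33 ± 1.42 CPM (SD, n = 2) in microglia. Its log2 difference from the other classes was 1.79 in cDC1, 1.43 in cDC2 and −3.71 in microglia, and edgeR's quasi-likelihood test called all 3. Pfkl, the liver isoform, was highest in neutrophils at 49.3, 37.2 and 96.3 CPM. Pfkfb3 (chr2:11471433-11554077, minus strand) stood at 296, 225 and 218 CPM in mature DC of BrM 2, BrM 3 and MFP 3 and at 76.1, 83.7 and 288 CPM in neutrophils of the same libraries, which overlapped. Pfkfb4 stood at 53.7, 74.4 and 47.4 CPM in those neutrophils and at 20.2 ± 6.44 CPM (SD, n = 6) in monocytes.

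Most genes of the lower pathway, from aldolase to lactate, were highest in macrophages or Tregs. Macrophages led for Aldoa (803 ± 224 CPM, n = 6), Tpi1 (531 ± 202 CPM, n = 6), Gapdh (1673 ± 787 CPM, n = 6) and Pgam1 (457 ± 113 CPM, n = 6), and also for the isomerase Gpi1 (347 ± 103 CPM, n = 6). Tregs led for Pgk1 (525 ± 82.4 CPM, n = 6), Eno1 (191 ± 43.8 CPM, n = 6) and Ldha (1267 ± 359.6 CPM, n = 6). In each of these 8 genes the libraries of the next class overlapped. Gapdh stood at 2197, 825 and 822 CPM in macrophages of BrM 1, BrM 2 and BrM 3 and at 2133, 2704 and 1357 CPM in MFP 1, MFP 2 and MFP 3, so the high libraries were the lymphoid-rich ones. Those held 42, 48 and 21 macrophages, against 1877, 1752 and 2284 in the mixed libraries. B cells were the lowest class for Gapdh (364 ± 39.6 CPM, n = 6), Pgk1 (120.0 ± 44.5 CPM, n = 6) and Tpi1 (76.1 ± 19.8 CPM, n = 6).

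Pkm and Aldoc, also of the lower pathway, and Pygl had other leading classes. Pkm, which makes pyruvate, was highest in neutrophils at 1001 ± 109 CPM (SD, n = 3) and next in monocytes at 888 ± 88.5 CPM (SD, n = 6). Aldoc, the brain-type aldolase, was highest in plasmacytoid DC at 52.4, 44.8, 22.6 and 23.9 CPM in BrM 1, BrM 2, BrM 3 and MFP 3, and lowest in microglia at 2.27 ± 1.33 CPM (SD, n = 2). Pygl, the liver isoform of glycogen phosphorylase, stood at 237, 209 and 149 CPM in neutrophils of BrM 2, BrM 3 and MFP 3. It stood at 50.6 ± 7.17 CPM (SD, n = 3) in mature DC and 47.5 ± 14.7 CPM (SD, n = 6) in monocytes, and at 1.74 ± 1.56 CPM (SD, n = 6) in B cells.

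**Figure D2:**
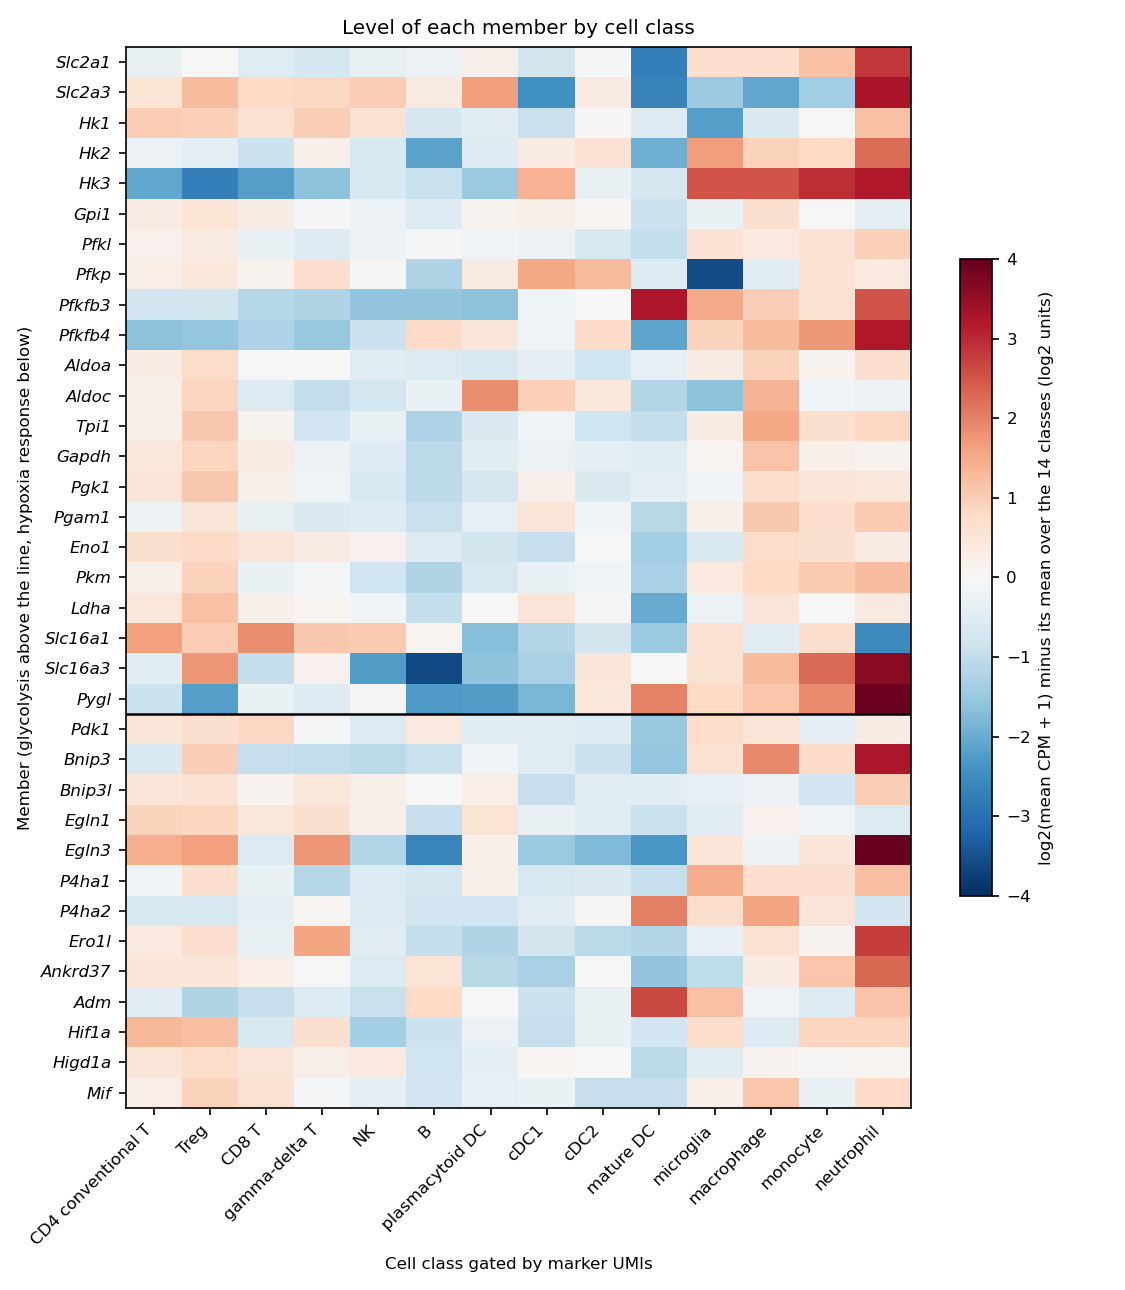
Level of the 35 members (rows, glycolysis above the line) in the 14 classes (columns), as log2(mean CPM + 1) minus the mean of the row over classes, red above and blue below that mean. The neutrophil column is red for most members and blue for Slc16a1, and the mature DC column is red for Pfkfb3 and Pygl and blue for Slc2a1, Slc2a3 and Ldha.

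Among the hypoxia response genes, Egln3 had the largest neutrophil difference. It stood at 35.8, 102 and 273 CPM in neutrophils of BrM 2, BrM 3 and MFP 3 (log2 5.72, SE 0.25, adjusted p = 2.8e-29, edgeR's quasi-likelihood test). The next class, γδ T cells, held 25.2 ± 11.3 CPM (SD, n = 5) and overlapped the BrM 2 value, and B cells held 0.224 ± 0.550 CPM (SD, n = 6). Bnip3, a mitophagy receptor, stood at 94.0, 107 and 385 CPM and its relative Bnip3l at 188, 237 and 376 CPM in the 3 neutrophil libraries. Ero1l, an oxidase of the endoplasmic reticulum, stood at 80.6, 214 and 697 CPM, and Ankrd37 at 49.3, 158 and 115 CPM. MFP 3 was the highest of the 3 libraries for Egln3, Bnip3, Bnip3l and Ero1l, and BrM 3 for Ankrd37. With 1 MFP library the site and the library cannot be told apart in neutrophils, and no site test was made there.

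The neutrophil counts leaned on MFP 3. Without MFP replicate 3, 19 members were called higher and 2 lower, with 15.9% of all genes higher and 14.5% lower. Egln1 then had a log2 difference of −1.22 in place of 0.58, and Higd1a −0.28 in place of 0.86. Dissociation stress genes, which respond to tissue digestion, were called higher in neutrophils for 9 of 10, and their summed level was 8500, 10664 and 18817 CPM in BrM 2, BrM 3 and MFP 3. Macrophage transcripts (C1qa, C1qb, C1qc, Apoe and Lyz2) summed to 4039.5, 3032 and 1833 CPM in these neutrophils, and tumour or epithelial markers to 129.9, 60.5 and 40.9 CPM. Median UMIs per neutrophil were 1558, 1548 and 3039. The part of these values in the result was not tested.

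Genes of the same pathways outside the 35 were counted in neutrophils as well. Of 16 other glycolysis genes tested, 5 were higher and 2 lower (median log2 0.32). Of 25 other hypoxia response genes, 15 were higher and 1 lower (median 1.18), among them the heme oxygenase Hmox1 (5.21), the angiogenic factor Vegfa (3.45), the lipid droplet protein Plin2 (3.28) and the histone demethylase Kdm3a (2.55). Of 7 pentose phosphate genes 2 were higher and 2 lower. The median of all genes in neutrophils was −0.26 by edgeR, −0.20 with RLE scaling of the same genes and 0.20 by DESeq2, which tested more genes.

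Mature DC, the migratory activated state, held little of most members. Of the 35, 22 were lower and 4 higher than in the other classes, where 19.3% of all genes were lower and 24.8% higher. They were the lowest class for, among others, Slc2a1 (6.90 ± 7.92 CPM, n = 3), Slc2a3 (0.532 ± 0.465 CPM, n = 3), Ldha (138 ± 26.5 CPM, n = 3), Pkm (175 ± 30.9 CPM, n = 3) and Mif (219 ± 116 CPM, n = 3). Pfkfb3 was higher (log2 3.71, SE 0.17, adjusted p = 2.0e-28, edgeR's quasi-likelihood test), and so was Pygl (log2 2.75). Adm and P4ha2 were the remaining higher calls, at 13.5 ± 15.5 CPM (SD, n = 3) and 5.88 ± 6.81 CPM (SD, n = 3), with SDs above their means, so no fold is given. Of 16 other glycolysis genes 3 were higher and 3 lower, the enolases Eno2 (log2 6.88) and Eno3 (5.31) being among the higher ones. With stricter gates, which left 2 libraries, 13 members were lower and 2 higher, with 14.9% of all genes lower and 24.2% higher.

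The same pattern stood in the direct comparison of mature DC with cDC2 in 3 libraries. Of 30 members 13 were lower in mature DC and 2 higher, with 20.3% of all genes called higher and 21.9% lower. Ldha was 138 ± 26.5 against 597 ± 12.1 CPM, lower in 3 of 3 libraries (log2 −1.97, SE 0.16, adjusted p = 2.5e-06, edgeR's quasi-likelihood test with library as pair). Slc2a1 was 6.90 ± 7.92 against 55.6 ± 6.18 CPM (log2 −2.48) and Pfkp was lower as well (log2 −1.66). Pfkfb3 was 247 ± 43.4 against 23.4 ± 5.17 CPM, higher in 3 of 3 (log2 3.52). Pygl was the other member called higher. Of the other transporters, Slc2a3 was lower (0.532 ± 0.465 against 11.3 ± 1.58 CPM), Slc16a3 (28.4 ± 25.7 against 44.3 ± 26.1 CPM) did not pass and Slc16a1 was not tested.

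Macrophages and monocytes both held many members above the other classes. In macrophages 24 were higher and 5 lower (34.4% of all genes called higher and 21.9% lower, member median 0.82 against 0.07). In monocytes 21 were higher and 2 lower (27.8% and 22.4% of all genes, median 0.68 against −0.04). Dissociation stress genes were higher for 8 of 10 in macrophages and for 6 of 10 in monocytes, and their part in the result was not tested. Of 25 other hypoxia response genes 8 were higher and 6 lower in macrophages, with Hmox1 at log2 3.36, Plin2 at 2.72 and Vegfa at 2.44. Compared within 6 libraries, 8 of 32 members were higher and 10 lower in macrophages than in monocytes, with 17.3% of all genes called higher and 18.9% lower. Without BrM replicate 2, BrM replicate 3 or MFP replicate 3 the number lower was between 5 and 6, with 15.9%, 15% and 17.7% of all genes lower.

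Macrophages held less of the Hif1a transcript than monocytes. Hif1a (chr12:73901375-73947530, plus strand) was 81.8 ± 9.72 against 215 ± 74.8 CPM, lower in 6 of 6 libraries (log2 −1.34, SE 0.14, adjusted p = 1.6e-06, edgeR's quasi-likelihood test). Slc16a3 (70.5 ± 21.8 against 142 ± 20.9 CPM, log2 −1.12) and Pfkp (89.6 ± 24.3 against 183 ± 36.2 CPM, log2 −1.11) were also lower in 6 of 6. Higher in macrophages in 6 of 6 were Mif, a secreted cytokine (898 ± 346 against 341 ± 183 CPM, log2 1.40), Aldoc (25.2 ± 6.25 against 8.06 ± 3.14 CPM, log2 1.60), Gapdh (log2 0.84) and Bnip3 (log2 0.82). Tpi1 was called higher (log2 0.82) with 4 of 6 libraries in that direction.

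Neutrophils and monocytes were compared in 3 libraries. Of 33 members 20 were higher in neutrophils and 1, Slc16a1, was lower, with 21.2% of all genes called higher and 23.9% lower. Slc2a3 was 93.4 ± 39.8 against 2.93 ± 0.595 CPM (log2 5.54, SE 0.42, adjusted p = 1.0e-22, edgeR's quasi-likelihood test), and Egln3 was 137 ± 122 against 9.62 ± 2.70 CPM (log2 4.23). Both were higher in 3 of 3. Gapdh (829.6 ± 342 against 898 ± 225 CPM), Tpi1 (321 ± 201 against 350.2 ± 69.7 CPM), Pgk1 (342 ± 123 against 428 ± 68.5 CPM) and Ldha (726 ± 341 against 698 ± 21.3 CPM) did not pass. Without MFP replicate 3, Slc16a1 was no longer called.

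Microglia, the resident macrophages of brain, reached 20 cells in BrM 2 and BrM 3. Against macrophages of those libraries 9 of 35 members were higher and 15 lower, with 23% of all genes called higher and 22.6% lower. With 2 pairs there is 1 residual degree of freedom, and the p-values rest on the spread pooled over genes. Hif1a was 189.7 ± 14.1 against 81.6 ± 10.4 CPM (log2 1.21), the collagen hydroxylase P4ha1 143 ± 14.3 against 75.5 ± 6.05 CPM (log2 0.90) and Hk2 127 ± 4.95 against 77.2 ± 0.622 CPM (log2 0.69). Aldoc was 2.27 ± 1.33 against 18.1 ± 1.08 CPM (log2 −2.85) and Pfkp 9.33 ± 1.42 against 64.1 ± 5.24 CPM (log2 −2.82). Gapdh (819 ± 38.7 against 823 ± 2.70 CPM) and Pkm (563 ± 51.6 against 555 ± 51.5 CPM) did not pass.

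Tregs held more of the lower pathway than CD4 conventional T cells. Over 6 libraries 12 of 31 members were higher and 2, Pygl and Slc16a1, lower, with 14.1% of all genes called higher and 13.1% lower. The higher members were Aldoa, Tpi1, Gapdh, Pgk1, Pgam1, Pkm, Ldha, Slc16a3, Slc2a3, Bnip3, P4ha1 and Mif. Slc16a3 stood at 116, 73.9 and 30.8 CPM in Tregs of BrM 1, BrM 2 and BrM 3 and at 112, 125 and 140.3 CPM in MFP 1, MFP 2 and MFP 3, against 16.9 to 24.9 CPM in CD4 conventional T cells, so the cell types did not overlap (log2 2.25, SE 0.20, adjusted p = 2.4e-07, edgeR's quasi-likelihood test). Bnip3 was 41.0 ± 14.6 against 12.6 ± 3.66 CPM (log2 1.69), Tpi1 389 ± 98.2 against 215 ± 39.3 CPM (log2 0.83) and Ldha 1267 ± 359.6 against 769 ± 152 CPM (log2 0.66), each higher in 6 of 6. Hif1a (273 ± 34.4 against 293 ± 20.3 CPM) and Egln3 (23.0 ± 8.64 against 19.8 ± 3.07 CPM) did not pass. Proliferation genes were higher in Tregs for 12 of 12, and their part in the result was not tested. Both lower calls were lost with stricter gates or without BrM replicate 1.

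CD8 T cells held more of most members than NK cells, the other cytotoxic lymphocytes. Of 33 members 22 were higher in CD8 T cells than in NK cells and 2, Hk3 and Pygl, lower, with 27.9% of all genes called higher and 24.4% lower. Pdk1, a kinase that inhibits pyruvate dehydrogenase, was 25.5 ± 6.00 against 9.22 ± 1.98 CPM, higher in 6 of 6 (log2 1.57, SE 0.09, adjusted p = 3.0e-08, edgeR's quasi-likelihood test). Mif was 635 ± 105 against 324 ± 54.4 CPM (log2 1.06) and Slc16a1 35.9 ± 3.94 against 19.9 ± 3.72 CPM (log2 1.05). The glucose transporters did not pass, with Slc2a1 at 36.5 ± 4.21 against 42.5 ± 1.75 CPM and Slc2a3 at 16.1 ± 4.28 against 18.5 ± 6.43 CPM.

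In γδ T cells 3 of 31 members were higher and 15 lower than in CD4 conventional T cells of the same 5 libraries, with 10.8% of all genes called higher and 9.39% lower. Ero1l was 145 ± 29.3 against 65.8 ± 11.1 CPM, higher in 5 of 5 (log2 1.09, SE 0.13, adjusted p = 1.6e-05, edgeR's quasi-likelihood test), and Slc16a3 was 32.8 ± 5.36 against 20.5 ± 3.39 CPM (log2 0.74). Tpi1 was 108 ± 32.0 against 218 ± 43.3 CPM, lower in 5 of 5. Without BrM replicate 1 the number higher was 1 (9.13% of all genes), and without BrM replicate 2 or MFP replicate 2 the number lower was 9 or 8 (7.23% and 7.24%). Over all classes Hif1a was highest in CD4 conventional T cells, at 261 to 314 CPM over 6 libraries, and lowest in NK cells, at 43.6 to 46.6 CPM. The highest and lowest class did not overlap.

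Against the other classes, members were mostly lower in B cells (24 lower and 3 higher, of all genes 23% lower and 24.2% higher), NK cells (22 and 4, 21.4% and 35.2%) and plasmacytoid DC (19 and 3, 16% and 20.3%). They were 12 lower and 6 higher in cDC2 (11.4% and 23.2%), 11 and 5 in cDC1 (13.4% and 23%) and 14 and 8 in γδ T cells (17.4% and 24.2%). Tregs had 20 higher and 5 lower (26.4% and 20%), microglia 18 and 6 (29.8% and 18.9%), CD4 conventional T cells 13 and 9 (36.1% and 19.5%) and CD8 T cells 12 and 12 (38.6% and 23.5%). The 3 members higher in B cells were Pfkfb4, Ankrd37 and Adm, at 9.99 ± 4.96 CPM (SD, n = 6), 31.6 ± 14.8 CPM (SD, n = 6) and 3.03 ± 3.43 CPM (SD, n = 6). Without BrM replicate 1 no member was called higher in B cells (18.4% of all genes higher), and 5 were called lower in CD4 conventional T cells (18.4% of all genes lower).

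The balance of the lists was described in each class by the mean of log2(CPM + 1) over the members of a list, with no test. The glycolytic mean was highest in neutrophils (7.18 ± 0.42, SD over 3 libraries), monocytes (6.57 ± 0.19, n = 6) and macrophages (6.53 ± 0.24, n = 6), and lowest in mature DC (4.996 ± 0.19, n = 3) and B cells (4.89 ± 0.17, n = 6). The hypoxia response mean was highest in neutrophils (5.94 ± 0.91), then in Tregs (5.44 ± 0.34, n = 6), macrophages (5.30 ± 0.32) and CD4 conventional T cells (5.28 ± 0.11, n = 6), which did not differ beyond their spread. Hypoxia response minus glycolysis was −0.60 ± 0.05 in γδ T cells (n = 5), −0.61 ± 0.12 in B cells and −0.64 ± 0.10 in CD4 conventional T cells. It was −1.23 ± 0.54 in neutrophils, −1.23 ± 0.16 in macrophages, −1.55 ± 0.34 in monocytes and −1.58 ± 0.23 in cDC2 (n = 5). Levels are not compared between genes, so only the order of the classes can be read from this difference. Its mean was higher in the 3 classes named first than in the 4 named last, and the order among the first 3 was within their spread.

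**Figure D3:**
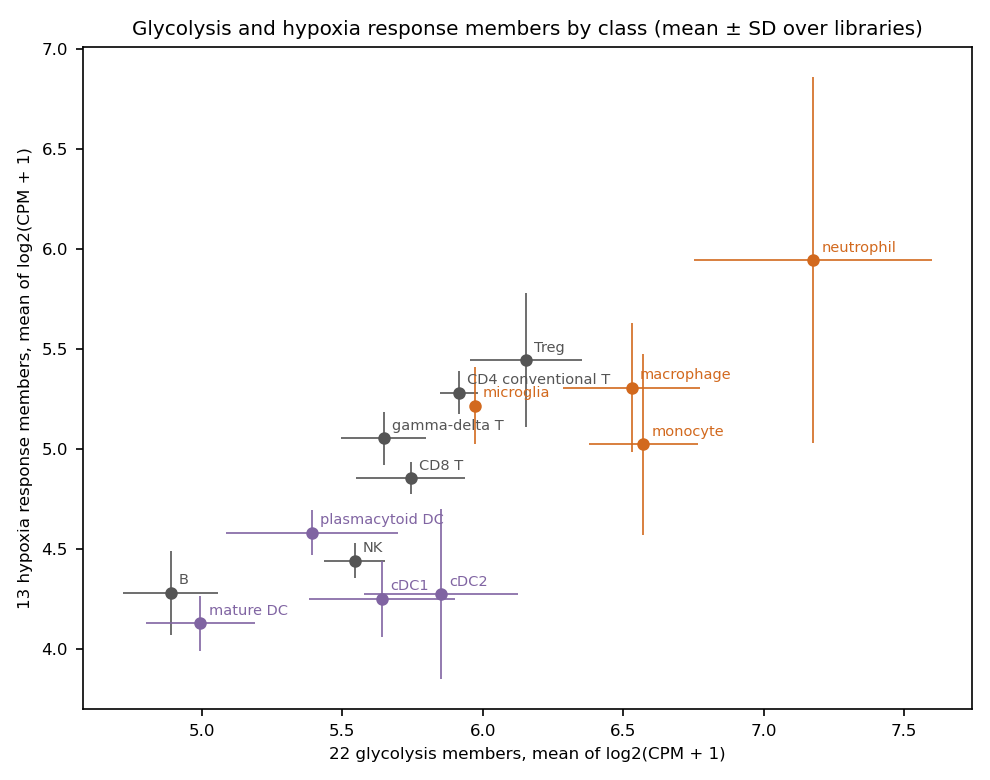
Mean of log2(CPM + 1) over the 22 glycolysis members (x axis) and the 13 hypoxia response members (y axis), 1 point per class with bars for the SD over libraries, lymphoid classes grey, dendritic purple and other myeloid orange. Neutrophils lie highest on both axes, and monocytes and cDC2 lie low on the y axis for their place on the x axis.

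Whether both lists were high in the same cells was examined in macrophages, monocytes and neutrophils. Each cell was thinned to 4000 UMIs (1000 in neutrophils), and cells with at least 2 UMIs over Egln3, Ankrd37, Adm, Ero1l, P4ha1, P4ha2, Bnip3 and Pdk1 were set against cells with 0. Cells with 1 such UMI were left out. The 22 glycolytic genes and the remaining 5 hypoxia response genes did not enter the choice of cells. The sets are ranges of a count and not cell types.

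In macrophages 294 of 1834 cells of BrM 2 had at least 2 such UMIs (16.03%, exact 95% interval 14.4 to 17.8%). The share was 361 of 1696 in BrM 3 (21.3%, 19.4 to 23.3%) and 673 of 2160 in MFP 3 (31.2%, 29.2 to 33.2%), above both intervals of BrM, with 1 MFP library. Without thinning the shares were 46.6, 47.9 and 66.9%, at median depths of 11607, 10574.5 and 13835 UMIs. NK cells thinned alike gave 5.98 to 10.5% and CD8 T cells 8.70 to 13.5%, and monocytes 11.5 to 28.8% over 5 libraries. At 1000 UMIs neutrophils gave 6.45% in BrM 2, 17.4% in BrM 3 and 34.2% in MFP 3, against 0.228 to 1.13% in NK cells. The intervals cover counting error only. Cells too shallow to thin, 43, 56 and 124 macrophages and 3, 3 and 5 neutrophils, were left out.

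Macrophages with these hypoxia transcripts held more glycolytic transcripts per 1000000 UMIs in all 3 libraries. The 22 genes summed to 7424 against 3235 CPM in cells with and without them in BrM 2, 7767 against 3349 CPM in BrM 3 and 9188 against 3976 CPM in MFP 3. The mean log2 ratio was 1.21 (SD 0.0077, n = 3), and the exact two-sided sign-flip permutation p was 0.25, the smallest that 3 libraries can give. At least 1 log2 unit higher in each library were 11 of the 22 genes, against 0.501% of 9772 genes with at least 10 UMIs in each library. Higher in each library were 20 of the 22, against 19.6% of those genes, and the median log2 ratio was 1.08 for the 22 and −0.01 for all.

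Tpi1 had the largest ratio among the glycolytic genes of macrophages. It stood at 721 against 173 CPM in BrM 2, 735 against 179.6 in BrM 3 and 859.6 against 239 in MFP 3, a mean log2 ratio of 1.98 (SD 0.11). Slc16a3 stood at 111 against 32.6, 101 against 34.3 and 139.7 against 47.3 CPM (1.60, SD 0.12), and Slc2a1 at 161 against 58.1, 153 against 69.8 and 181 against 59.6 CPM (1.39, SD 0.24). Pgk1 had 1.59 (SD 0.18) and Ldha 1.09 (SD 0.02). All 5 genes were higher with the transcripts in each of the 3 libraries.

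The ratio varied between isoforms of one step, differences that were not tested. It was 1.08 (SD 0.13) for Hk2, 0.32 (SD 0.04) for Hk3 and 0.31 (SD 0.21) for Hk1. It was 1.54 (SD 0.25) for Pfkl and 1.25 (SD 0.02) for Pfkp, and 0.71 (SD 0.22) for Pfkfb3 and 0.21 (SD 0.65) for Pfkfb4. Slc2a3, with few UMIs in macrophages, ranged from −0.98 to 1.44. Pfkfb4 and Slc2a3 lay within their spread around 0.

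Of the 5 hypoxia response genes outside the choice of cells, 4 were higher in each macrophage library. These were Mif (1.53, SD 0.07), Egln1 (1.44, SD 0.12), the mitochondrial protein Higd1a (0.88, SD 0.10) and Bnip3l (0.79, SD 0.04). Hif1a stood at 86.7 against 78.7 CPM in BrM 2, 80.3 against 85.1 in BrM 3 and 65.8 against 80.6 in MFP 3 (−0.08, SD 0.21), with no common direction. Other hypoxia response genes, outside the 35, gave a summed ratio of 0.77 (SD 0.03). Pentose phosphate genes gave −0.13 (SD 0.06), proliferation genes −0.28 (SD 0.09), dissociation stress genes 0.10 (SD 0.18) and the mitochondrial genome −0.22 (SD 0.05). Markers of other cells gave −0.20 (SD 0.09) for tumour or epithelial cells, 0.03 (SD 0.20) for neutrophils, 0.11 (SD 0.58) for T cells and −0.26 (SD 0.37) for monocytes, the last at −0.66 in MFP 3. The macrophage markers themselves were lower in each of the 3 libraries, at −0.17 (SD 0.02). The part of these markers in the result was not tested.

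**Figure D4:**
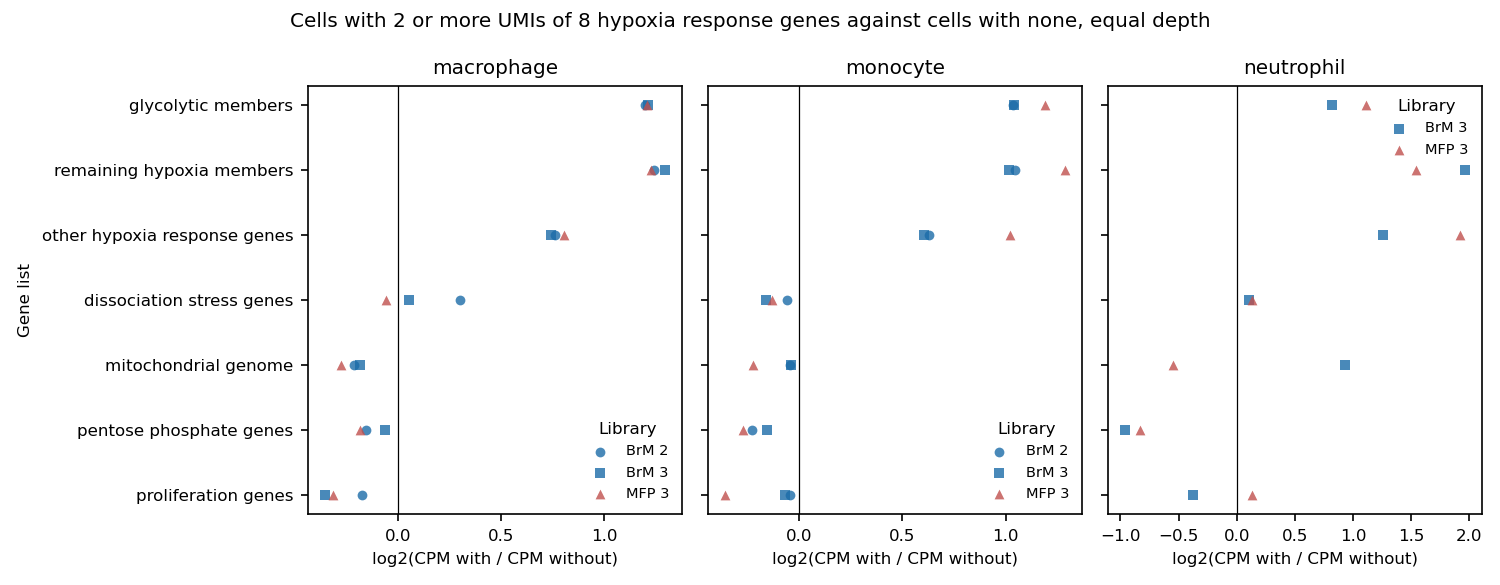
Summed level of gene lists in cells with at least 2 UMIs of 8 hypoxia response genes against cells with none at equal depth, as log2 ratios on the x axis, 1 point per library (blue BrM, red MFP) in macrophages, monocytes and neutrophils. The glycolytic members lie at 1.198 to 1.213 in the 3 macrophage libraries, and pentose phosphate and proliferation genes lie below 0 there.

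Monocytes gave a ratio of 1.09 (SD 0.09) for the summed glycolytic genes over 3 libraries, and 6 of 17 genes were at least 1 log2 unit higher in each, against 0.291% of all genes. Neutrophils could be used in BrM 3 and MFP 3 and gave 0.82 and 1.11. At least 1 log2 unit higher in both were 8 of 15 glycolytic genes, against 2.82% of all genes. Ldha stood at 1143 against 411 CPM in BrM 3 and 2115 against 571 in MFP 3, with against without the transcripts. Pygl went the other way, at 47.6 against 247 and 89.0 against 225 CPM (−1.84, SD 0.72), although the BrM 3 value with the transcripts rests on 1 UMI. In these neutrophils pentose phosphate genes were at −0.90 (SD 0.10). A list of mitochondrial pyruvate carrier and pyruvate dehydrogenase genes, with the kinases and phosphatase of that enzyme, was at −0.87 (SD 0.19). Tumour or epithelial markers were at 0.80 in BrM 3 (47.6 against 27.4 CPM) and 0.79 in MFP 3 (57.6 against 33.3 CPM). The BrM 3 sets were 21 cells with and 73 without the transcripts at 1000 UMIs each, so these marker values rest on very few UMIs. The mitochondrial genome was at 0.93 in BrM 3 and −0.55 in MFP 3, monocyte markers at −0.04 and −1.48, macrophage markers at 0.30 and −0.14, T cell markers at −0.20 and −0.79, and neutrophil markers at −0.26 and −0.35. The part of these values in the result was not tested.

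BrM was compared with MFP within each class by edgeR's quasi-likelihood test, with adjustment over the genes of that class. No member was called in B cells (of 21 tested, 0% of all genes called), CD4 conventional T (31, 0.0201%), CD8 T (31, 0%), NK (33, 0%), Treg (28, 0.121%), cDC2 (28, 0.591%) or monocytes (30, 0.836%). At an unadjusted p under 0.05 there were 4, 4, 6, 5, 7, 3 and 3 members in these 7 classes. Of all genes, 362 of 4932 passed that cut in B cells and 1799 of 9940 in CD4 conventional T cells. The counts were 572 of 10096 in CD8 T, 838 of 10567 in NK and 1313 of 5803 in Treg cells. They were 853 of 6936 in cDC2 and 861 of 6460 in monocytes. DESeq2 called 1 member in Tregs and 0 in the other 6 classes. Without BrM replicate 1, 5 members were higher in BrM in B cells (6.99% of all genes higher). CD4 conventional T cells then had 5 higher and 3 lower (10.6% and 5.98% of all genes), NK cells 3 and 2 (2.95% and 2.09%) and Tregs 3 and 3 (9.76% and 7.76%). In γδ T cells 1 of 27 members was higher in BrM (0.0894% of all genes higher), and in macrophages 4 of 35 were lower (3.55% of all genes lower). The remaining 5 classes had too few libraries on a site for a test.

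The macrophage calls were Pdk1, Ankrd37, Pfkfb4 and P4ha2. Pdk1 stood at 29.7, 11.8 and 12.99 CPM in BrM 1, BrM 2 and BrM 3 and at 25.9, 16.5 and 24.4 CPM in MFP 1, MFP 2 and MFP 3 (log2 −0.82, SE 0.19, adjusted p = 0.012, edgeR's quasi-likelihood test). Ankrd37 stood at 40.4, 11.3 and 15.1 CPM in BrM and 33.7, 33.0 and 27.4 CPM in MFP (log2 −0.91, SE 0.22, adjusted p = 0.019, edgeR's quasi-likelihood test). For both, BrM 1 was the highest of the 6 libraries and BrM 2 and BrM 3 the lowest, so the sites overlapped. Pfkfb4 stood at 10.8, 8.95 and 10.5 CPM in BrM and 12.9, 24.7 and 18.7 CPM in MFP without overlap (log2 −0.82). Macrophages of BrM 1, MFP 1 and MFP 2 held 370927, 386284 and 121288 UMIs in all, so their Pfkfb4 values rest on a few UMIs. The lack of overlap turns on 10.8 CPM in BrM 1 against 12.9 CPM in MFP 1. P4ha2 was 2.79 ± 0.379 against 5.43 ± 4.72 CPM (BrM against MFP), the sites overlapped, and no fold is given. The median log2 difference was −0.36 over the members and −0.05 over all genes tested. Dissociation stress genes summed to 5271, 4543 and 4540.1 CPM in macrophages of BrM and to 6855, 2152 and 6379 CPM in MFP, and their part in the result was not tested.

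These calls rested on the mixed libraries. None was made by DESeq2, with replicate number as a block, or without BrM replicate 2, BrM replicate 3 or MFP replicate 3. Leaving out these 3 libraries in turn left 4710, 4684 and 4522 genes tested, against 11045 with all 6 libraries. Within the lymphoid-rich libraries 4923 genes were tested. A member not called in these settings may therefore not have been tested there. Without BrM replicate 1, 10 members were called lower, with 4.74% of all genes lower. Within the mixed libraries (BrM 2 and BrM 3 against MFP 3) 16 members were lower in BrM and 1, Hk3, was higher (log2 0.48), where 20.4% of all genes were called. There Slc16a3 had −0.76, Bnip3 −0.80, Egln3 −0.87, Gapdh −0.56 and Gpi1 −0.34. With 1 MFP library in that comparison, site and library cannot be told apart. Within the lymphoid-rich libraries no member was called (0.102% of all genes), and Pdk1 had 0.33 and Ankrd37 0.21. The comparisons within a kind of library were chosen after seeing the data.

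In γδ T cells the call was Hif1a. It stood at 270.2, 222 and 201 CPM in BrM 1, BrM 2 and BrM 3 and at 121 and 111 CPM in MFP 1 and MFP 2, with no overlap (log2 0.99, SE 0.21, adjusted p = 0.049, edgeR's quasi-likelihood test). Over the other settings the log2 difference was between 0.81 and 1.18. The call was lost with stricter gates (adjusted p = 0.39), without the 5% of cells with most UMIs (adjusted p = 0.27), and without BrM replicate 2, MFP replicate 1 or MFP replicate 2 (adjusted p = 0.059, 0.54 and 0.51). Within the lymphoid-rich libraries the difference was 1.18, where 1.53% of all genes were called. Of the γδ T markers, Cd163l1 stood at 695, 939 and 801 CPM in BrM and 590.0 and 675 CPM in MFP, and Tcrg-C1 at 1203, 862 and 880.1 against 812 and 842 CPM. Trdc stood at 3118, 1984 and 2160.5 against 1979 and 2152 CPM and Trdv4 at 283, 129 and 144 against 179 and 188 CPM, so these overlapped between the sites while the first pair was higher in BrM without overlap. Macrophage transcripts in these cells summed to 33.2, 592 and 624 CPM in BrM and 14.8 and 2.78 CPM in MFP, and their part in the result was not tested.

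Ldha was called in none of the classes tested. In Tregs it stood at 1428, 1488 and 1774 CPM in BrM 1, BrM 2 and BrM 3 and at 1151, 892 and 866 CPM in MFP 1, MFP 2 and MFP 3, which did not overlap (log2 0.76, SE 0.18, adjusted p = 0.11, edgeR's quasi-likelihood test). In the other lymphoid classes the log2 difference of Ldha was 0.70 in B cells, 0.51 in CD4 conventional T cells, 0.43 in NK cells, 0.42 in γδ T cells and 0.05 in CD8 T cells. These lymphoid classes come from the same libraries and are not independent. Its differences in macrophages, monocytes and cDC2, the other classes with a site test, are not given here. Also not called in Tregs were P4ha1 at 51.8 ± 17.0 against 109 ± 21.4 CPM and Ankrd37 at 19.6 ± 6.88 against 39.6 ± 15.9 CPM (BrM against MFP, 3 libraries each, adjusted p = 0.12 and 0.15, edgeR's quasi-likelihood test). In NK cells Slc2a3 was 12.9 ± 2.05 against 24.1 ± 1.90 CPM (log2 −0.83, adjusted p = 0.60, edgeR's quasi-likelihood test).

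CD8 T, CD4 conventional T, Treg and NK cells had members called between the sites within one kind of library, although none was called over all 6 libraries. These comparisons were chosen after seeing the data, and each has 1 library on one site, so site and library cannot be told apart and the lone library is assumed to vary like the others. In CD8 T cells of the lymphoid-rich libraries (BrM 1 against MFP 1 and MFP 2) 8 members were lower in BrM 1, where 3.39% of all genes were called. They were Slc16a3 (log2 −1.86), Bnip3 (−1.83), Tpi1 (−1.08), Pgk1 (−0.64), Pgam1 (−0.59), Aldoa (−0.58), Gapdh (−0.57) and Mif (−0.50), and none was called in the mixed libraries (0.0869%). In CD4 conventional T cells 3 members were lower in BrM 1 in the lymphoid-rich libraries (9.1% of all genes called), namely Bnip3 (−0.97), Ankrd37 (−0.56) and Tpi1 (−0.44). In the mixed libraries 5 were higher in BrM 2 and BrM 3 than in MFP 3 (11.5%), namely Hk2 (1.19), Pgam1 (0.90), Ldha (0.71), Pgk1 (0.63) and Mif (0.55). Tregs of the mixed libraries had 4 members higher in BrM, Pgam1 (1.46), Ldha (1.08), Tpi1 (0.99) and Mif (0.83), and 2 lower, P4ha1 (−1.19) and Slc16a3 (−1.15), with 11.1% of all genes called. None was called in Tregs of the lymphoid-rich libraries (0%).

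NK cells had 1 member lower in BrM within each kind of library. It was Slc2a3 in the lymphoid-rich libraries (log2 −0.70, 2.92% of all genes called) and Pygl in the mixed ones (−1.53, 2.04%). In monocytes Hif1a was called higher in BrM 1, the 1 BrM library among the lymphoid-rich ones (log2 1.19, 2.48% of all genes called), and no member was called in the mixed ones (7.49%). In B cells none was called in either kind (0.725% and 0%), and none in cDC2 of the mixed libraries (0%).

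**Figure D5:**
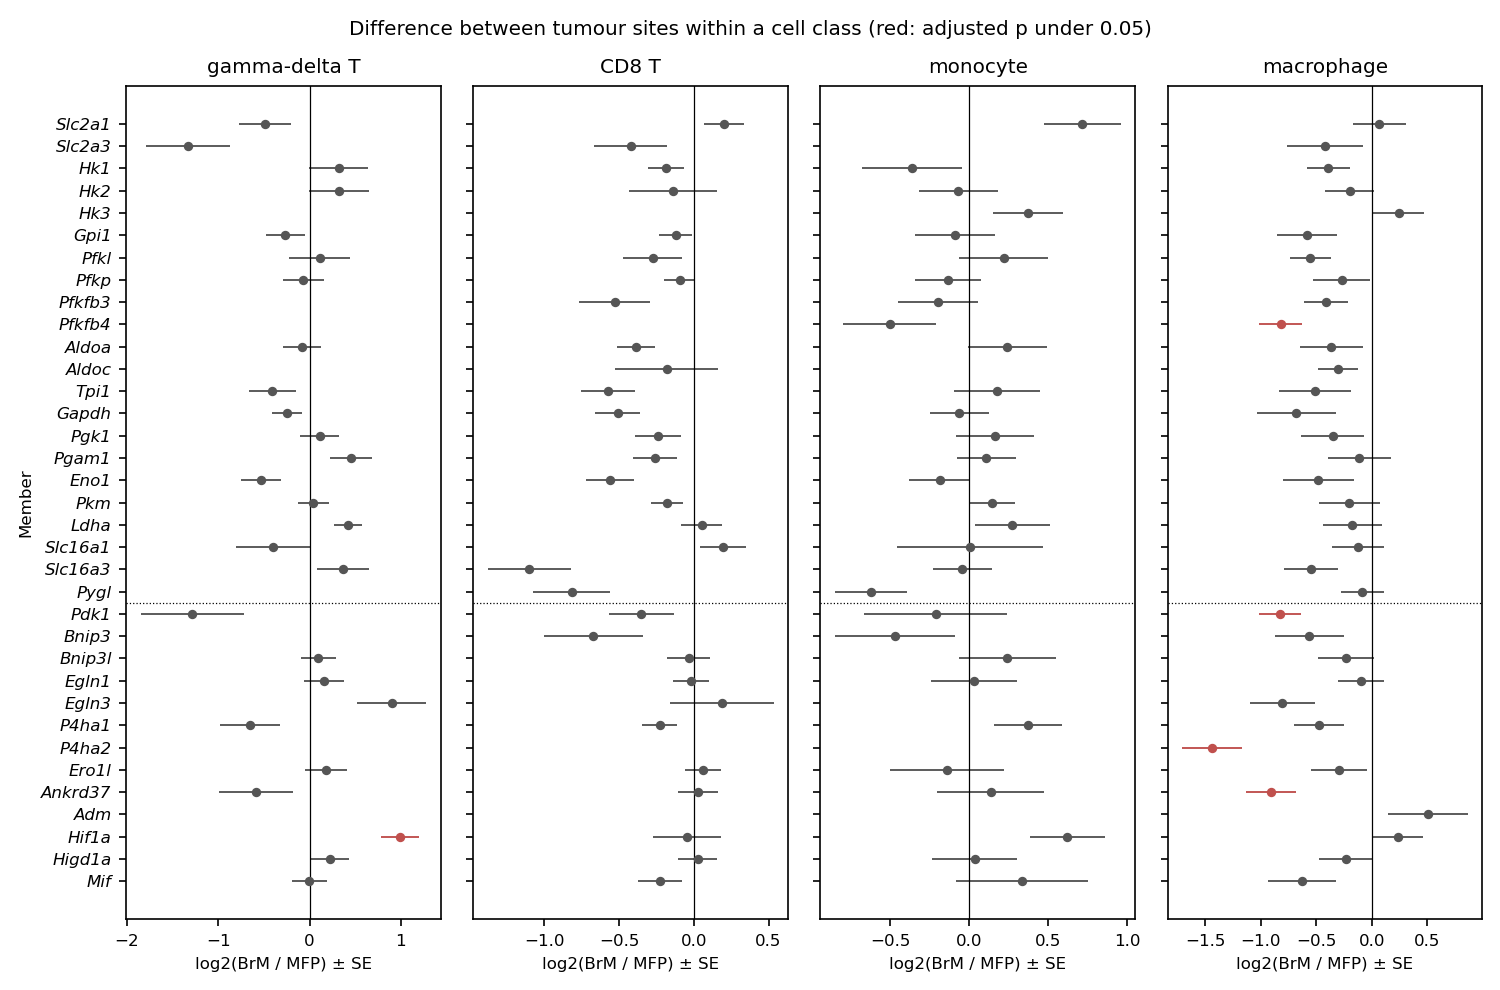
Log2 difference of BrM from MFP (x axis, fitted value ± SE) for each member in γδ T cells, CD8 T cells, monocytes and macrophages, red where the adjusted p is under 0.05. Red points are Hif1a in γδ T cells and Pfkfb4, Pdk1, P4ha2 and Ankrd37 in macrophages.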

How the data were processed

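Per the submitters' processing notes, reads were processed by the authors with Cell Ranger 4.0 against mm10. The values the authors deposited are UMI counts for each gene in each cell, not normalized. Cells with at least 200 genes, 500 UMIs and at most 10% mitochondrial UMIs were kept. They were assigned to 14 classes by gates on marker UMIs that also removed cells with markers of several lineages. No doublet caller was run. Counts were summed over each class with at least 20 cells in a library. Sums were scaled by TMM, filtered for low counts and tested with edgeR 4.0.16 (quasi-likelihood test) in R 4.3.3, with an adjusted p threshold of 0.05. Comparisons were BrM against MFP in each class, a class against the mean of the others with library as a term, and 7 pairs of classes with library as pair.

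CPM are summed counts per 1000000 UMIs, and log2 levels use a pseudocount of 1 CPM. Each library gave 50692794 to 70944735 UMIs, with a median of 5006 to 8277 per cell, which sets the counting error of low members. Apart from cell type markers, genes were named where they were members, or belonged to the pathway lists and passed the test. Those under other observations were instead chosen after their values were seen and were not tested. Scripts were tested on simulated data. Alternatives were DESeq2 1.42.0, RLE scaling, no filter on low counts, other gates, cell filters and pseudocounts, the composition of the library as a term, a replicate block, and each library left out. Same-numbered libraries of the sites deviated together in some classes and not in others, and numbers were not used to pair samples. Cells were thinned with numpy 2.4.6, and exact intervals and permutation tests were made with scipy 1.17.1. RefSeq promoter entries are of GRCm38.p6. Members and lists were chosen with earlier results of these data known.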

Additional observations from a re-analysis of the deposited data

How the results depend on the processing

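For every change given here the cause was not tested. RLE scaling, no library term (classes only) and a limit of 20% mitochondrial UMIs (sites only) left each count of members called within 1.5 times its value. Against the other classes, stricter gates took the members called lower from 9 to 4 in CD4 conventional T cells. In Tregs they went from 5 to 1, in cDC1 from 11 to 6 and in mature DC from 22 to 13. In neutrophils those lower went from 1 to 0, and in mature DC those higher from 4 to 2. The share of all genes lower went from 19.5 to 17% in CD4 conventional T cells and 20 to 11.1% in Tregs. It went from 13.4 to 8.69% in cDC1, 19.3 to 14.9% in mature DC and 25.5 to 25% in neutrophils. The share higher in mature DC went from 24.8 to 24.2%. These gates left 3 of 6 Treg libraries, 2 of 3 cDC1 libraries and 2 of 3 mature DC libraries. DESeq2 took those higher in cDC1 from 5 to 3, and over all genes it gave 2213 higher and 2012 lower in cDC1 (2643 and 1540 by edgeR) and 3925 and 3620 in NK cells (4043 and 2458). In the pairs, the lower count of CD8 T against NK cells went from 2 to 1 without the 5% of cells with most UMIs. Of all genes, 24.4% and then 23.8% were lower. The lower count of Tregs against CD4 conventional T cells went from 2 to 1 there and to 0 with stricter gates. Of all genes, 13.1% were lower in that pair, against 9.93% and 5.31%, the last with 3 libraries. The higher count of mature DC against cDC2 went from 2 to 4 with no filter or with stricter gates, and the lower count of neutrophils against monocytes from 1 to 2 with no filter. Of all genes, 20.3% were higher in mature DC, against 10.6% with no filter and 22.9% with stricter gates. In neutrophils 23.9% of all genes were lower, against 14.1% with no filter. Leaving out 1 library gave 0 to 3 members higher in B cells (3 with all libraries), 5 to 9 lower in CD4 conventional T cells (9), 3 to 4 lower in Tregs (5), 3 to 6 higher in cDC1 (5), 2 to 4 higher in mature DC (4), and 19 to 31 higher (31) and 1 to 2 lower (1) in neutrophils. The matching shares of all genes were 18.4 to 25.7%, 15.9 to 18.8%, 14.2 to 20.7%, 14.2 to 23.3% and 18.5 to 25.3%. In neutrophils they were 15.9 to 27.4% higher and 14.5 to 25.9% lower. In the pairs it gave 1 to 2 lower for CD8 T against NK, 0 to 2 lower for Tregs, 1 to 4 higher and 8 to 16 lower for γδ T, 5 to 11 lower for macrophages against monocytes, 2 to 4 higher for mature DC against cDC2 and 0 to 1 lower for neutrophils. In the same order the shares of all genes were 21.5 to 24.6%, 9.43 to 13.1%, 8.91 to 10.2% and 7.23 to 9.58%. For the last 3 pairs they were 15 to 18.8%, 13.6 to 25.1% and 17.1 to 17.8%. In neutrophils Egln1 was −1.22 without MFP replicate 3 and 0.84 without BrM replicate 2, and Higd1a −0.28 without MFP replicate 3 and 1.10 without BrM replicate 3.

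Between the sites, macrophages had 4 members lower, against 0 by DESeq2, 2 with no filter, 7 with the kind of library as a term, 0 within the lymphoid-rich and 16 within the mixed libraries, where 1 was higher. Pdk1 (0.33) and Ankrd37 (0.21) in macrophages and Tpi1 (−0.44) in CD4 conventional T cells turned their sign within the lymphoid-rich libraries. Tregs had 0 members higher, against 1 by DESeq2, 2 with no filter and 4 within the mixed libraries, which also gave 2 lower. NK cells had 0 lower, against 1 with the kind of library as a term and 1 within each kind. CD4 conventional T cells had 0, against 5 higher within the mixed and 3 lower within the lymphoid-rich libraries, and CD8 T cells 0, against 8 lower within the lymphoid-rich ones. cDC2 had 0 lower, against 1 with no filter and 3 with stricter gates, and monocytes 0 higher, against 2 with no filter and 1 within the lymphoid-rich libraries. The γδ T call was lost (0 members) with stricter gates and without the 5% of cells with most UMIs. Leaving out 1 library gave 0 to 5 members higher in B cells, 0 to 5 higher and 0 to 3 lower in CD4 conventional T cells, 0 to 3 higher and 0 to 2 lower in NK cells, 0 to 3 higher and 0 to 3 lower in Tregs, 0 to 1 lower in cDC2, 0 to 1 higher in γδ T cells, 0 to 10 lower in macrophages and 0 to 1 higher in monocytes. The highest values in B, CD4 conventional T, NK, Treg cells and macrophages came without BrM replicate 1. The shares of all genes in that setting are given with the site results above. Over all genes, macrophages had 527 calls, against 5 by DESeq2, 358 with no filter and 0 without BrM replicate 2, BrM replicate 3 or MFP replicate 3. The last 3 settings tested 4710, 4684 and 4522 genes, against 11045 with all libraries. The share of all genes lower in macrophages was 3.55%, against 0.0284% by DESeq2 and 1.37% with no filter. It was 5.97% with the kind of library as a term. CD4 conventional T cells had 2 calls, against 203 by DESeq2, 523 with no filter and 1617 without BrM replicate 1. Tregs had 7, against 204, 455 and 996, B cells 0, against 2, 64 and 423, and NK cells 0, against 29, 5 and 462. With no filter, 1.57% of all genes were lower in cDC2 (0.519% with the filter) and 1.49% higher in monocytes (0.372%). With the kind of library as a term, 0.119% of all genes were lower in NK cells (0% without it). With replicate number as a block, the lower count in macrophages was 0 and all other counts of members were as without the block. Same-numbered libraries of the sites correlated at 0.55, −0.31 and 0.33 in NK cells and at 0.30, −0.35 and 0.47 in CD8 T cells. The libraries numbered 1 were both lymphoid-rich and those numbered 3 both mixed, while BrM 2 was mixed and MFP 2 lymphoid-rich. Pairing by number and library composition therefore cannot be told apart.

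Hypoxia response minus glycolysis, as a class minus the mean of the others, changed with the pseudocount of 10 CPM from 0.39 to 0.28 in CD4 conventional T cells, −0.12 to 0.027 in NK cells, −0.63 to −0.33 in cDC2, 0.43 to 0.35 in γδ T cells and 0.26 to 0.081 in microglia. Over members at 10 CPM or more it was 0.55 in CD4 conventional T cells, 0.51 in γδ T cells and −0.37 in mature DC (0.14 over all members), and with stricter gates 0.52 in γδ T cells. In cells with at least 3 hypoxia transcripts the glycolytic log2 ratio was 1.61 in macrophages, 1.51 in monocytes and 1.31 in neutrophils, and that of the remaining hypoxia response genes 1.67 in macrophages and 1.54 in monocytes (1.12 with at least 2). After thinning to 2000 UMIs (500 in neutrophils) the glycolytic ratio was 1.41 in macrophages and 1.29 in monocytes, and the remaining hypoxia response genes gave 1.45 in macrophages and 1.24 in neutrophils, against 1.25 and 1.75 at the higher number. Depth limits the members with few UMIs in a class, such as Slc2a3 in macrophages and Adm, and the classes with few cells.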

Other observations

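Macrophages with the 8 hypoxia transcripts differed from those without them in genes beyond glycolysis as well. Of the 9772 genes with at least 10 UMIs in each of the 3 libraries, 49 were at least 1 log2 unit higher in each library. These 49 included 11 glycolytic members and 2 hypoxia response members. The genes named next were chosen after their values were seen and were not tested. They include other hypoxia response genes, namely Ndrg1 (mean log2 ratio 1.88, SD 0.10), the lipid droplet gene Hilpda (1.59, SD 0.10), Fam162a (1.41, SD 0.04) and Vegfa (1.30, SD 0.14). They also include Nos2, the inducible nitric oxide synthase (3.54, SD 0.74), the arginase Arg1 (1.74, SD 0.32), the macrophage elastase Mmp12 (2.40, SD 0.31) and Cd274, which encodes PD-L1 (1.42, SD 0.39). The interferon-stimulated genes Ifit1 (2.03, SD 0.07) and Rsad2 (1.98, SD 0.42) and the interferon gene Ifnb1 (3.55, SD 0.54) were in the same set. So were Hspb1 (2.67, SD 0.70), Mt2 (1.87, SD 0.23) and Hspa1b (1.58, SD 0.25). Hspa1b belongs to the dissociation stress list, and no other gene of that list was in the set. The part of dissociation stress in these values was not tested. In monocytes Fam162a (2.34, SD 0.54) and Rsad2 (2.00, SD 0.55) were again among the 13 genes that passed the same rule. Of those 13, 6 were glycolytic members and 1 was a hypoxia response member.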
